A study of Mus musculus with 6 samples.

Results

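The genes described here are p53 (Trp53) and 30 genes known as its targets or partners, 31 in all, chosen by name from the 45777 genes of the count table. The choice was made with earlier results of these data known. All 31 averaged 10 counts or more per library and so were among the 18328 genes tested. The RNA came from the hearts of BALB/c nude females (CAnN.Cg-Foxn1nu/Crl) that carried subcutaneous MDA-MB-231 breast tumours, so every group, Control included, was athymic and tumour-bearing. The mice were aged 6 weeks at the start of the experiment, before the treatment, and were older when the hearts were taken. Of the 6 groups, Control had neither agent, Dox had doxorubicin alone, Rh2-20 mg/kg had Rh2 alone, as did Rh2-30 mg/kg at the higher dose, and the other two had both agents (Rh2-20 mg/kg + Dox, then Rh2-30 mg/kg + Dox). Dox was given at 2 mg/kg every other day to a cumulative 22 mg/kg, and Rh2 is a ginsenoside that was injected daily, both over 3 weeks. Each group was 1 library made from 5 pooled hearts by hybrid capture of RNA (SureSelect), so the spread between mice within a group was not measured.

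p53 is a transcription factor that is stabilised when DNA is broken, as happens when Dox traps topoisomerase on DNA. It then switches on genes that stop the cell cycle, repair DNA, limit growth or lead to apoptosis. It also switches on Mdm2, the ubiquitin ligase that degrades it, so that the pathway carries its own feedback loop. The activity of p53 is set largely at the protein level, and the RNA of Trp53 itself need not report it. The question put to these data was whether the RNA of the pathway differed in hearts that had received Dox, and whether Rh2 went with a further difference.

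The p53 protein binds DNA as a tetramer at pairs of decamers here called p53 decamers. RefSeq promoter windows (250 bases before to 50 after a start site, GRCm38.p6) were found for 24 of the 31 genes. There were none for Trp53inp1, Zmat3, Perp, Tnfrsf10b, Ddb2, Xpc and Rrm2b. The p53 decamer, searched without mismatch on both strands, was in the window of 9 of the 24 genes (37.5%), against 8.52% of the 12612 tested genes with a window. A paired site with up to 2 mismatches was in 2 of the 24 (8.33%), against 4.64% of those genes. The paired sites, of Ccng1 and Sesn1, are shown first, because these genes had the highest mean level per length in this heart. Capitals mark the matched decamers, each sequence reads 5′ to 3′ on the strand of the gene, and the letters come from RefSeq.

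Ccng1 (chr11:40755442-40755501, minus strand): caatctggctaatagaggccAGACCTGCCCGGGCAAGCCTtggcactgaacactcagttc
Sesn1 (chr10:41887233-41887295, plus strand): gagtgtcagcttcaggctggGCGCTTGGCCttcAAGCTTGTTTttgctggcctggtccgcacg

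In Ccng1 the decamers touched, with 1 mismatch in all, and the site began 195 bases before the start. In Sesn1 they were 3 bases apart, with 2 mismatches, and the site began 186 bases before a start that lies inside the gene. Single decamers upstream of a start are shown for 4 further genes, among them p53 and its ligase.

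Trp53 (chr11:69580264-69580313, plus strand): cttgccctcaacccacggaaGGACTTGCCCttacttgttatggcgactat
Mdm2 (chr10:117710915-117710964, minus strand): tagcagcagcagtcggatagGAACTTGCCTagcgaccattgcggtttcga
Polk (chr13:96519389-96519437, minus strand): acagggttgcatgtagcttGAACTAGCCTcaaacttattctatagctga
Ei24 (chr9:36797335-36797364, minus strand): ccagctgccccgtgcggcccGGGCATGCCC

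The decamer began 75 bases before the start of Trp53, 186 before that of Mdm2, 231 before an inner start of Polk and 10 before that of Ei24. The decamers of Abhd4, Aen and Rap2b lay after the start. A match is a description of the letters and not evidence of binding. Of the 7 genes whose Dox comparison had an unadjusted p under 0.05, described with their values further on, Sesn1 was the one with a match in its window, Fas, Btg2, Dcxr and Ephx1 had a window without one, and Trp53inp1 and Ddb2 had no window.

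The 6 libraries held 86164411 to 90621002 counts, so they were of nearly equal depth, and TMM factors ran from 0.959 to 1.08. The hearts were not of equal composition. The summed level of 8 atrial markers was 1783 CPM (TMM-normalised counts scaled to library size) in the Rh2-30 mg/kg library, 416 in Dox, 521 at 20 mg/kg with Dox and 57.6 to 87.1 CPM in the rest. Erythroid markers summed to 10560 CPM in Dox and 1660 to 5922 CPM in the other libraries. Cardiomyocyte markers, which define the labelled tissue, were high throughout, with sums of 86160 to 116889 CPM and the lowest sum in Rh2-30 mg/kg. Most of each sum was Ttn, at 66336 to 90345 CPM. These are bulk samples, in which fewer cells of a type and less RNA per cell cannot be told apart. Below, levels of 1 gene across libraries are in CPM, and levels of different genes are compared only in FPKM, the authors' value per length.

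The level of the 31 genes spanned a wide range. In FPKM, 10 had a mean over the 6 libraries of at least 10, 15 lay from 1 to under 10, and 6 were under 1. Ccng1, cyclin G1, a target that recruits a phosphatase to Mdm2, was highest at 46.7 ± 4.14 FPKM (SD, n = 6 libraries). Sesn1, sestrin 1, followed at 45.4 ± 11.2 FPKM, and the difference between these neighbours was smaller than either spread. Mdm4 (35.9 ± 2.93), Plk2 (29.3 ± 6.43), Fas (28.1 ± 7.80), Ephx1 (25.3 ± 3.44) and Mdm2 (21.01 ± 0.888) came next. Sesn1 differed from Mdm4 by less than the spread of Sesn1. Plk2 did not differ from Fas, nor Fas from Ephx1, beyond their spread. Trp53 itself was at 10.7 ± 1.63 FPKM. Gdf15 was lowest at 0.311 ± 0.132 FPKM and did not differ from Psrc1 at 0.338 ± 0.136 FPKM beyond their spread.

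**Figure D1:**
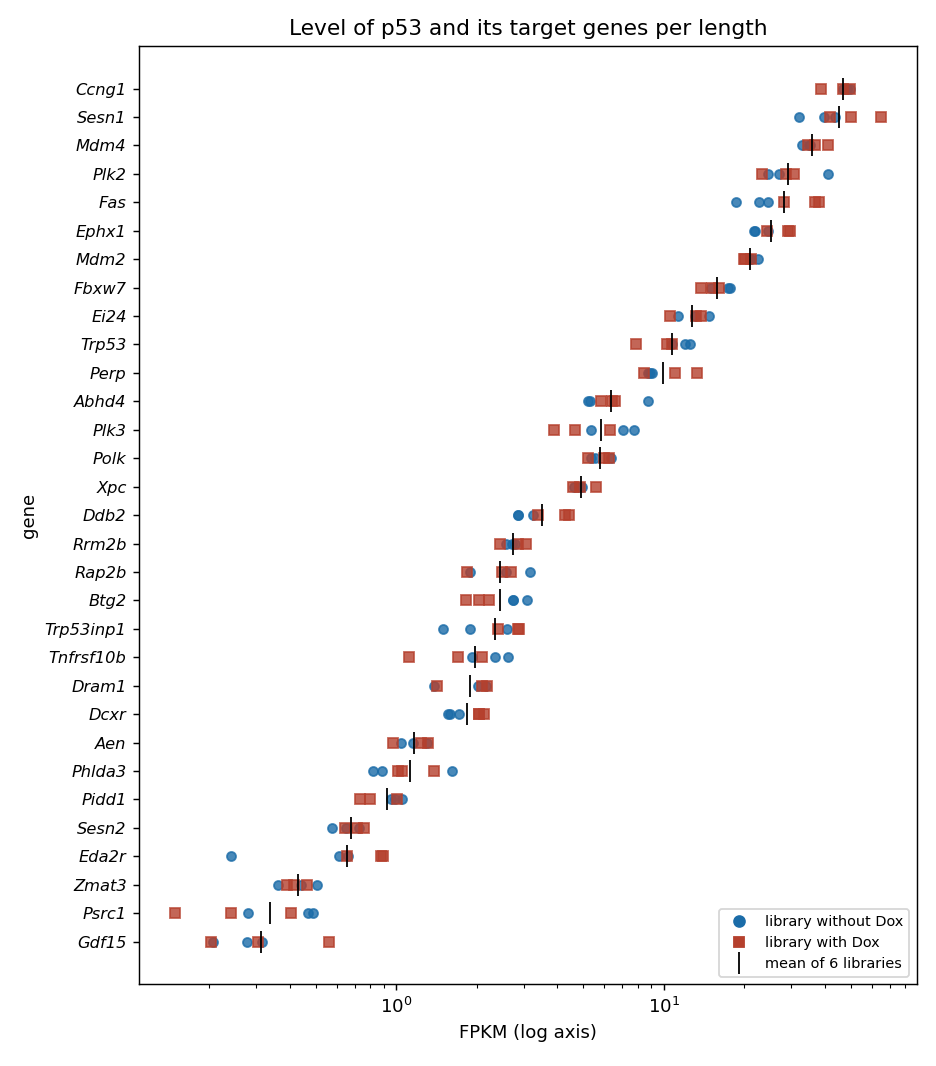
FPKM of each of the 31 genes (log axis) in the 3 libraries without Dox (circles) and the 3 with Dox (squares), with the mean of the 6 libraries as a bar and genes ordered by it. Ccng1 and Sesn1 stand highest, at 46.7 and 45.4 FPKM, and the squares of Fas lie to the right of its circles.

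Across the 6 libraries the typical gene of the 31 moved about as much as the typical gene tested. The highest library was a median of 1.55 times the lowest over the 31 genes and 1.52 times over all genes tested. The ratio reached 2 in 4 of the 31 (12.9%), Psrc1 (2.96), Gdf15 (2.45), Tnfrsf10b (2.1) and Plk3 (2.09), against 28.7% of all genes tested. These shares were not matched for the number of counts per gene. The steadiest gene was Mdm2, at 1.18, followed by Rrm2b, at 1.22.

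**Figure D2:**
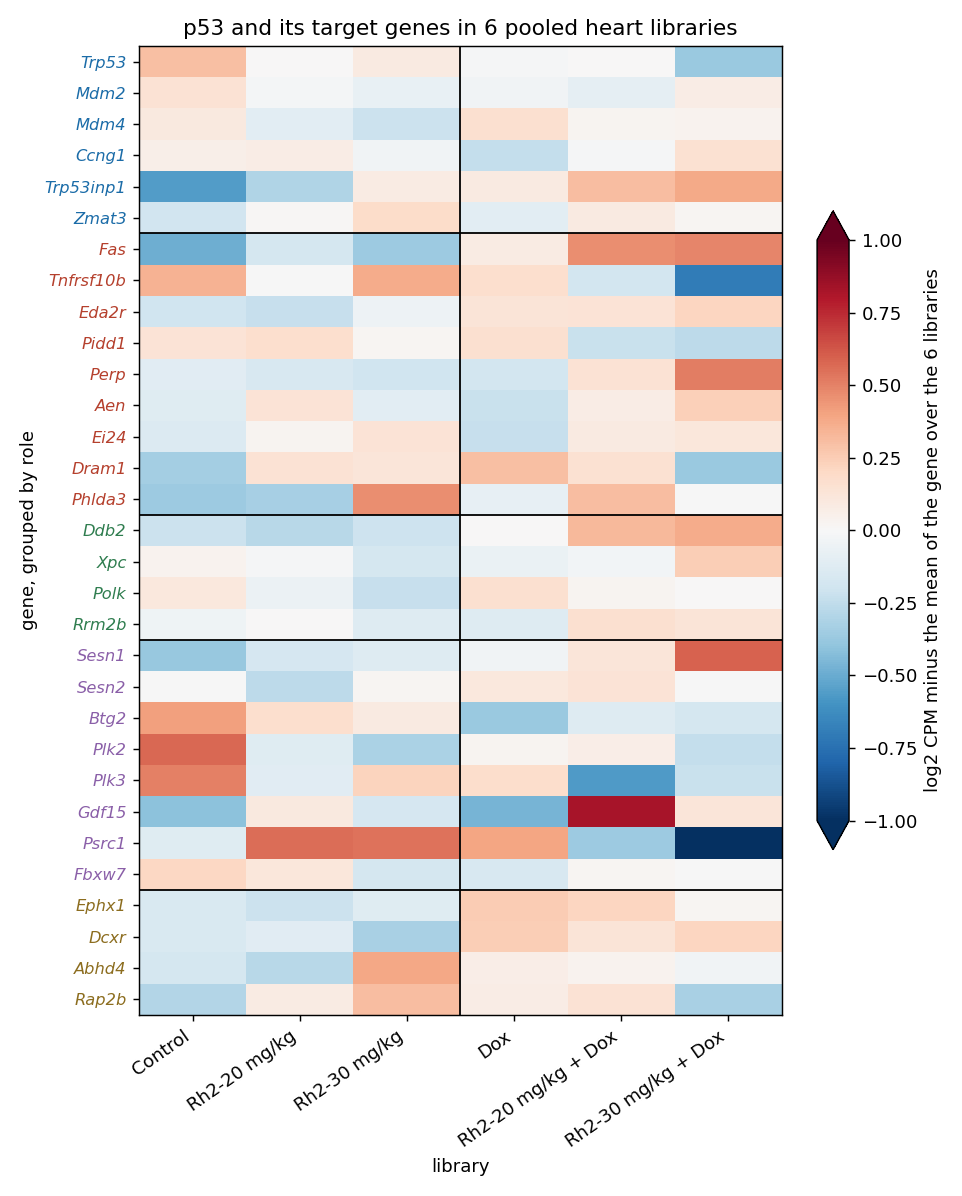
Log2 CPM of each gene minus its mean over the 6 libraries, with genes in rows grouped by role (ink colours) and the 3 libraries without Dox left of the vertical line. Red is above and blue below the mean of the gene, and Fas, Trp53inp1 and Ddb2 are red in all or most libraries with Dox while Btg2 is blue in each of them.

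Libraries with Dox were first compared with those without. Fas, the death receptor, was 1.61-fold higher with Dox, and Trp53inp1, Ddb2, Sesn1, Dcxr and Ephx1 were 1.25- to 1.41-fold higher, while Btg2 was 0.731-fold. Mdm2 and Ccng1, the classical feedback targets, were within a few percent. No gene of the 31 passed an adjusted p of 0.05 by edgeR's quasi-likelihood test over all 18328 genes, where 0.0273% of genes did (5 genes). DESeq2's Wald test called 2 of the 31, Fas and Ephx1, and 423 genes in all. At an unadjusted p under 0.05 there were 7 of the 31 (22.6%), 6 higher and 1 lower, beside 10.1% of all genes (4.2% higher and 5.91% lower). Since the 31 were chosen with earlier results of these data known, the shares describe them and are not independent support. The 3 libraries with Dox lay all above the 3 without in 7 genes (7.85% of all genes did) and all below in 2 (9.16% of all genes). Counted in the deposited FPKM, the first number was 3 (Fas, Ddb2 and Dcxr), and the second was still Trp53 and Btg2. The fold change was above 1 in 18 of the 31 (47.2% of all genes), and the median log2 fold change was 0.07 over the 31 and -0.01 over all genes tested. The count of 7 ranged from 5 to 10 when 1 library was left out, with 10 without Dox. Fas, Ddb2, Ephx1 and Btg2 were in the set each time, while Trp53inp1, Sesn1 and Dcxr were not. Without the Rh2-30 mg/kg library, which held the most atrial RNA, the count was 7 again, but Dcxr had left and Abhd4 had entered. With Rh2 dose as a block it was also 7, with Dcxr out and Plk3 in, 5 higher and 2 lower.

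**Figure D3:**
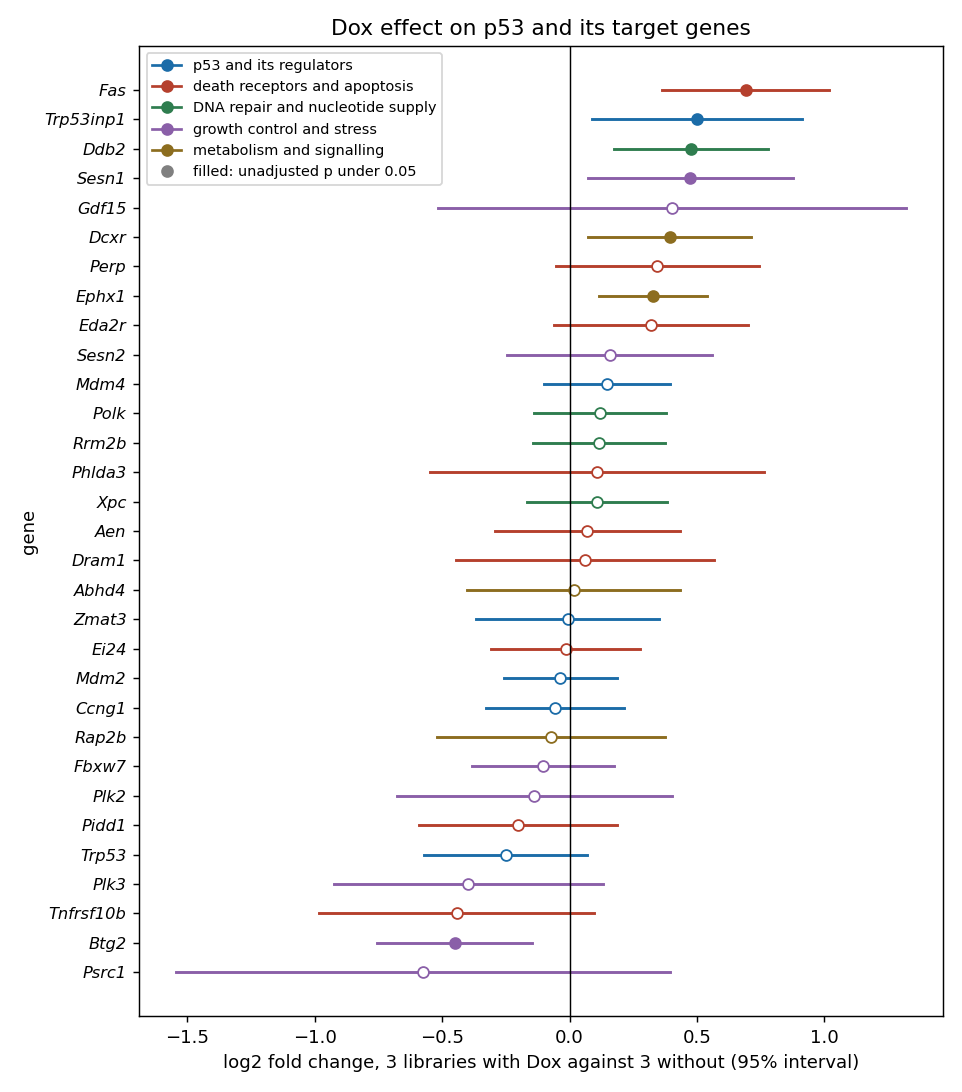
Log2 fold change of the 31 genes, 3 libraries with Dox against 3 without, with 95% intervals from edgeR, coloured by role and filled where the unadjusted p was under 0.05. Fas is highest at 0.69, and the intervals of Mdm2 and Ccng1 are narrow and span 0.

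Values with and without Dox are given in the order of Rh2 dose (0, 20 and 30 mg/kg), values in brackets are the log2 fold change with its 95% interval, and gene spans are those of RefSeq on GRCm38.p6. Among p53 and its regulators, Trp53 (chr11:69580348-69591873) was at 30.8 CPM in Control, and 25.1 and 26.6 with Rh2 at 20 and 30 mg/kg. With Dox it was at 24.9, 25.1 and 19.4 CPM at Rh2 doses of 0, 20 and 30 mg/kg. The groups met at 25.1 CPM, where the 20 mg/kg library with Dox was below that without it by less than counting can show. On the log2 scale Trp53 differed by -0.25 (95% interval -0.57 to 0.07, adjusted p = 0.578 by edgeR). Mdm2 (chr10:117688875-117710758) was at 94.1, 83.9 and 80.5 CPM without Dox and at 82.8, 79.8 and 89.5 CPM with it. Its groups overlapped, and its log2 fold change was -0.04 (-0.26 to 0.18). Mdm4, the relative of Mdm2 that blocks the activation domain of p53, was at 198 to 245 CPM without Dox and 234 to 256 CPM with it (0.15, -0.10 to 0.40). Ccng1 was at 220, 222 and 206 CPM without Dox and at 179, 209 and 234 CPM with it (-0.06, -0.33 to 0.21). Zmat3, an RNA-binding target, stayed between 3.82 and 4.94 CPM in all 6 libraries (-0.01, -0.37 to 0.35).

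Trp53inp1 (chr4:11156441-11174379), a nuclear partner of p53 that is also one of its targets, was at 10.9 CPM in Control, 13.1 at 20 mg/kg of Rh2 and 17.1 at 30 mg/kg. With Dox it was at 17.2, 20.0 and 20.95 CPM. The lowest library with Dox was just above the highest without in CPM, while the groups overlapped in FPKM. Both series stood higher at the higher Rh2 dose. Its log2 fold change was 0.50 (0.09 to 0.91), with an unadjusted p of 0.0243 and an adjusted p of 0.416 by edgeR.

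Of the death receptors, Fas (chr19:34290647-34327775) carries the signal of Fas ligand to the caspases, and it was measured on 3121 to 6642 counts per library. It was at 37.5 CPM in Control, 46.7 at 20 mg/kg of Rh2 and 40.9 at 30 mg/kg. With Dox it was at 55.7 CPM without Rh2, 72.5 at 20 mg/kg and 73.7 at 30 mg/kg. Every library with Dox was above every library without it. Fas had a log2 fold change of 0.69 (0.36 to 1.02), with an unadjusted p of 0.00154 and an adjusted p of 0.216 by edgeR. With DESeq2's Wald test its adjusted p was 0.000937, and over all alternatives its log2 fold change lay between 0.62 and 0.81. Eda2r, the receptor of ectodysplasin A2, was low, at 1.97 to 2.23 CPM without Dox and 2.52 to 2.68 CPM with it (0.32, -0.06 to 0.70). Its groups did not overlap in CPM but did in FPKM.

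Tnfrsf10b (chr14:69767472-69784411), the mouse receptor for TRAIL, stood on the other side. It was at 10.0, 7.84 and 10.1 CPM without Dox and at 8.84, 6.94 and 4.83 CPM with it. The lowest value was that of Rh2-30 mg/kg + Dox, and the groups overlapped. Its log2 fold change came to -0.44 (-0.98 to 0.10, adjusted p = 0.572 by edgeR). Perp, a membrane protein of desmosomes that p53 induces in apoptosis, was at 21.1 to 22.4 CPM without Dox, and at 21.4, 26.8 and 34.4 CPM with Dox at Rh2 doses of 0, 20 and 30 mg/kg (0.34, -0.05 to 0.74). Of the 8 epidermal markers, Krt14, Krt1 and Lor were under a mean of 10 counts. Krt5 had counts only in Rh2-30 mg/kg, at 0.717 CPM. In Rh2-30 mg/kg + Dox, Krt10 was at its lowest level, 0.426 CPM. Trp63 and Sfn, at 1.25 and 1.47 CPM in that library, lay within the range of the others. The list summed to 791 to 1499 CPM, nearly all of it Dsp, a desmosomal gene that heart muscle also expresses. Dsp was at 788 to 1495 CPM and highest in Rh2-30 mg/kg + Dox. The part of skin RNA in the level of Perp was not tested.

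The remaining apoptosis genes did not separate by Dox. Pidd1, the scaffold of the caspase 2 complex, was at 4.13 to 4.60 CPM without Dox and 3.42 to 4.57 CPM with it (-0.20, -0.59 to 0.19). Aen, a nuclease, and Ei24, a membrane protein of the endoplasmic reticulum, had log2 fold changes of 0.07 (-0.29 to 0.43) and -0.02 (-0.31 to 0.28). Dram1, a lysosomal protein that links p53 to autophagy, was at 5.23, 7.30 and 7.17 CPM without Dox and 8.13, 7.34 and 5.10 CPM with it (0.06, -0.44 to 0.57). Its span overlaps that of Washc3 by 1339 bases, and reads there may belong to either gene. Phlda3, an inhibitor of Akt, was at 1.63, 1.67 and 2.89 CPM without Dox and 1.98, 2.60 and 2.09 CPM with it, on 136 to 274 counts per library (0.11, -0.55 to 0.76). Its highest value fell in the library with the most atrial RNA, whose part in it was not tested.

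Among the DNA repair genes, Ddb2 (chr2:91211545-91237132), which finds ultraviolet lesions for nucleotide excision repair, was the one that stood apart. It was at 7.26, 6.96 and 7.31 CPM without Dox and at 8.46, 10.6 and 10.9 CPM with it. The groups did not overlap, and the library with Dox alone was the nearest to those without. Ddb2 had a log2 fold change of 0.48 (0.18 to 0.78), with an unadjusted p of 0.00721 and an adjusted p of 0.331 by edgeR. Ddb2 overlaps Acp2 by 2554 bases, and Acp2 was at 42.4 to 50.9 CPM without Dox and 36.4 to 47.2 CPM with it, with a log2 fold change of -0.17. Xpc, the damage sensor of the same pathway, was at 20.5 to 23.7 CPM without Dox and 22.2 to 27.5 CPM with it (0.11, -0.17 to 0.38). Polk, a polymerase that copies past lesions, and Rrm2b, the ribonucleotide reductase subunit of resting cells, had log2 fold changes of 0.12 (-0.14 to 0.38) and 0.12 (-0.14 to 0.38).

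Among the genes of growth control and stress, Sesn1 (chr10:41810574-41908436), which restrains the growth kinase complex mTORC when nutrients are short, was at 125 CPM in Control, 145 at 20 mg/kg of Rh2 and 149 at 30 mg/kg. With Dox it was at 159, 177 and 245 CPM. The groups did not overlap in CPM but did in FPKM, and the value at 30 mg/kg with Dox was well above the rest. The log2 fold change was 0.47 (0.07 to 0.88), with an unadjusted p of 0.0271 and an adjusted p of 0.427 by edgeR. Its paralog Sesn2, which also answers to amino acid and endoplasmic reticulum stress, was at 1.95 to 2.37 CPM without Dox and 2.34 to 2.58 CPM with it (0.16, -0.25 to 0.56).

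Btg2 (chr1:134074865-134079155), an antiproliferative gene that is also an early response gene, was lower with Dox. It was at 12.8, 10.8 and 10.3 CPM without Dox and at 7.45, 8.78 and 8.54 CPM with it, and the groups did not overlap. The log2 fold change was -0.45 (-0.75 to -0.15), with an unadjusted p of 0.00974 and an adjusted p of 0.344 by edgeR. Plk3, a stress-induced kinase of the polo family, was at 24.8, 16.2 and 20.5 CPM without Dox and 19.9, 11.9 and 15.0 CPM with it (-0.40, -0.93 to 0.13). It was lower with Dox at each Rh2 dose, although the groups overlapped. Its relative Plk2 was at 156, 96.6 and 84.2 CPM without Dox and 107, 110 and 89.0 CPM with it (-0.14, -0.68 to 0.40). Immediate early genes, which share fast induction with Btg2, Plk2 and Plk3, were lower with Dox in 14 of 16, 8 of them with an unadjusted p under 0.05 (5.91% of all genes) and 1 higher with such a p (4.2% of all genes), at a median log2 fold change of -0.75. Their summed level was 363 to 430 CPM without Dox and 288 to 327 CPM with it. The part of this early response in the levels of Btg2, Plk2 and Plk3 was not tested.

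Gdf15, a secreted stress cytokine, rested on 36 to 96 counts per library. It was at 0.444, 0.633 and 0.527 CPM without Dox and at 0.428, 1.05 and 0.644 CPM with it (0.40, -0.52 to 1.32). Dox alone was no higher than Control, and the library from Rh2-20 mg/kg + Dox stood above the rest. The summed level of the integrated stress response genes, another input to Gdf15 and Sesn2, was 383 to 435 CPM without Dox and 383 to 546 CPM with it, most of it Vldlr (247 to 425 CPM). Over the 13 tested genes of that list the median log2 fold change was -0.21, with 5 above 0 and 8 below. Psrc1, a spindle protein, rested on 31 to 99 counts and was at 0.660, 1.05 and 1.04 CPM without Dox and 0.940, 0.556 and 0.357 CPM with it (-0.57, -1.55 to 0.40). Fbxw7, the substrate receptor of a ubiquitin ligase that degrades cyclin E and Myc, was at 69.7 to 90.8 CPM without Dox and 70.2 to 79.7 CPM with it (-0.10, -0.38 to 0.17).

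Of the metabolic and signalling targets, Ephx1 (chr1:180989556-181017569), the microsomal epoxide hydrolase, was at 51.1, 49.1 and 52.2 CPM without Dox and at 67.5, 66.0 and 57.5 CPM with it. The groups did not overlap in CPM but did in FPKM, and the 3 values without Dox lay close together. Ephx1 had a log2 fold change of 0.33 (0.11 to 0.54), with an unadjusted p of 0.0083 and an adjusted p of 0.337 by edgeR, or 0.0412 by DESeq2's Wald test. Ephx1 also answers to NRF2, and the 12 NRF2 target genes had a median log2 fold change of 0.01, with 6 above 0 and 6 below. At an unadjusted p under 0.05, 1 was higher (4.2% of all genes), Gstm1 at 0.47 (0.15 to 0.78). In the other direction 1 was lower (5.91% of all genes), Txnrd1 at -0.38 (-0.74 to -0.02). The part of NRF2 in the level of Ephx1 was not tested. Dcxr (chr11:120724546-120727284), which reduces dicarbonyls and xylulose, was at 3.72, 3.82 and 3.30 CPM without Dox and at 4.91, 4.53 and 4.80 CPM with it (0.39, 0.07 to 0.71), with an unadjusted p of 0.0226 and an adjusted p of 0.415 by edgeR. Its groups did not overlap. Abhd4, a lipid hydrolase, was highest in Rh2-30 mg/kg at 25.8 CPM and lay at 16.3 to 20.7 CPM in the other libraries (0.02, -0.40 to 0.43). Rap2b, a small GTPase, was likewise highest in Rh2-30 mg/kg at 16.2 CPM and lay at 10.5 to 14.5 CPM elsewhere (-0.07, -0.52 to 0.38).

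**Figure D4:**
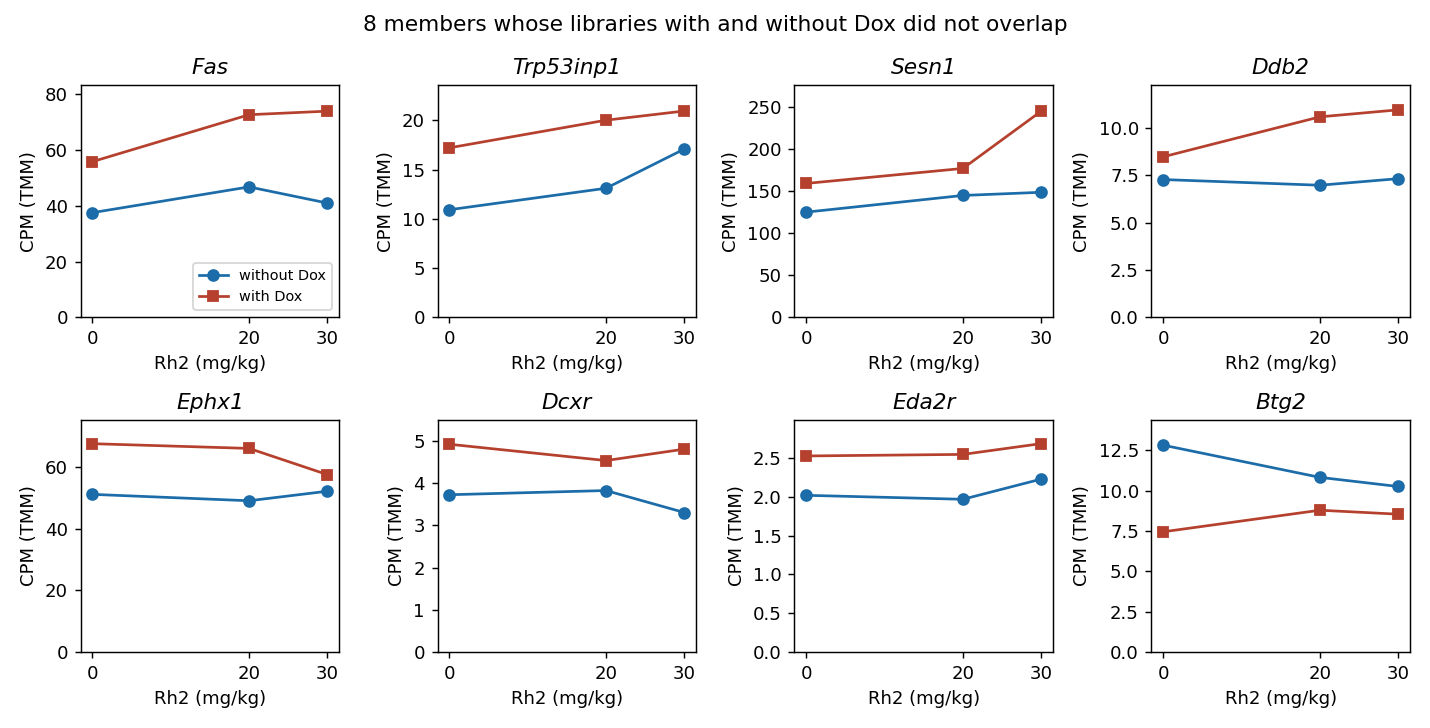
TMM-normalised CPM of 8 of the 9 non-overlapping genes against the Rh2 dose in mg/kg, for libraries without Dox (circles) and with Dox (squares), 1 library per point and axes from 0. The squares of Fas (55.7 to 73.7 CPM) lie above all its circles (37.5 to 46.7 CPM), and those of Btg2 (7.45 to 8.78 CPM) lie below (10.3 to 12.8 CPM).

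The 3 pairs at an equal Rh2 dose share no library, so they can be read one by one. Dox against no Dox, taken without Rh2, at 20 mg/kg and at 30 mg/kg in that order, gave all 3 log2 ratios above 0 in 9 of the 31 genes (29%), against 15.9% of all genes, and all 3 below 0 in 4 (12.9%), against 17.6%. Fas had 0.57, 0.63 and 0.85, and was the 1 gene above 0.5 in each pair. Trp53inp1 had 0.65, 0.61 and 0.29, and Ddb2 0.22, 0.60 and 0.58. Sesn1 had 0.35, 0.29 and 0.72, Dcxr 0.40, 0.25 and 0.54, and Ephx1 0.40, 0.43 and 0.14. Eda2r, Mdm4 and Polk completed the 9, with ratios of 0.27 to 0.37, 0.07 to 0.25 and 0.05 to 0.23. The 4 that were lower in each pair were Btg2 (-0.78, -0.30 and -0.26), Plk3 (-0.32, -0.45 and -0.45), Tnfrsf10b (-0.18, -0.18 and -1.07) and Trp53 (-0.31, 0.00 to 2 decimals and -0.46). With 1 library per condition these ratios have no replicate check. An interval that adds the common dispersion of the 6 libraries (0.0285) to counting reaches 0.67 to either side even for a well counted gene. By that interval Btg2 left out 0 in the pair without Rh2, Psrc1 in the pair at 20 mg/kg, and Fas, Sesn1, Perp, Tnfrsf10b and Psrc1 in the pair at 30 mg/kg. With a likelihood estimate of the dispersion (0.0864) the interval left out 0 only for Psrc1 at 30 mg/kg, of the 31 genes in these 3 pairs.

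Past 2-fold in a pair were no gene of the 31 without Rh2 (5.44% of all genes were higher and 3.58% lower) or at 20 mg/kg (4.09% and 2.87%). At 30 mg/kg 2 were lower (12.1% of all genes), Tnfrsf10b at -1.07 (-1.76 to -0.37) and Psrc1 at -1.53 (-2.43 to -0.64), and none was higher (2.4%). The pair at 30 mg/kg sets the library with the most atrial RNA (1783 CPM) against one with little (87.1 CPM), and the part of this in the ratios was not tested.

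Against the Control library, the counts past 2-fold were small at every treatment. None of the 31 was past 2-fold with Rh2 alone at 20 mg/kg (3.35% of all genes higher, 2.8% lower) or 30 mg/kg (8.48% and 1.63%), or with Dox alone. In Rh2-20 mg/kg + Dox 1 gene was higher (5.13% of all genes), Gdf15 at 1.23 (0.36 to 2.1), and 1 lower (3.62%), Plk3 at -1.07 (-1.75 to -0.38). In Rh2-30 mg/kg + Dox none was higher (4.08%) and 1 was lower (6.85%), Tnfrsf10b at -1.05 (-1.75 to -0.36). Fas came close, with log2 ratios of 0.95 (0.27 to 1.63) and 0.98 (0.30 to 1.65) in the libraries with both agents, and 0.57 (-0.11 to 1.25) in Dox. Trp53inp1 was at 0.87 and 0.94 in the same libraries with both agents, and Sesn1 at 0.50 and 0.97. These comparisons share the Control library, so its own deviations enter each of them. Control was the lowest of the 6 libraries for Fas, Trp53inp1 and Sesn1, and the highest for Trp53, Btg2, Plk2 and Plk3.

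The libraries with Rh2 were then compared with those without, with Dox as a term in the model. Fas, Trp53inp1 and Ei24 were 1.21- to 1.28-fold higher with Rh2, and Plk2 and Plk3 were 0.728- and 0.707-fold. None of the 31 passed an adjusted p of 0.05 by edgeR, and neither did any of the 18328 genes (0% called, with 1602 at an unadjusted p under 0.05 and 247 called by DESeq2's Wald test, none of them among the 31). At an unadjusted p under 0.05 there were 5 of the 31, against 8.74% of all genes, with 3 higher (4.09% of all genes) and 2 lower (4.65%). The log2 fold change was above 0 in 17 of the 31 (51.8% of all genes), with a median of 0.03 over the 31 and 0.01 over all genes. The count fell to 1 without the Dox library, to 3 without Control, without Rh2-20 mg/kg or without Rh2-30 mg/kg + Dox, and to 2 with no term for Dox.

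Fas had a log2 fold change of 0.31 with Rh2 (0.08 to 0.53, adjusted p = 0.567 by edgeR), with each Rh2 library above the library of the same Dox state without Rh2. Ei24 was at 33.2 CPM in Control and 31 in Dox, and at 37.1, 39.9, 38.8 and 39.3 CPM in the libraries with Rh2. Its 4 Rh2 libraries lay above both others and close together, and its log2 fold change was 0.27 (0.08 to 0.47, adjusted p = 0.567 by edgeR). Trp53inp1 had 0.36 (0.02 to 0.69). Plk3 had -0.50 (-0.86 to -0.14) and Plk2 -0.46 (-0.91 to -0.01), and Plk2 was highest in Control by a wide margin. Of the wider ones that did not pass, Gdf15 had 0.67 (-0.22 to 1.57), Tnfrsf10b -0.38 (-0.89 to 0.13), Phlda3 0.36 (-0.34 to 1.07) and Sesn1 0.32 (-0.04 to 0.68). The 4 libraries with Rh2 were all above the 2 without in 4 genes (9.87% of all genes), Ei24, Zmat3, Aen and Gdf15. They were all below in 2 (9.08% of all genes), Mdm4 and Polk.

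Adding Rh2 to Dox was read against the Dox library alone. Fas was higher by 0.38 (-0.30 to 1.06) at 20 mg/kg and by 0.40 (-0.27 to 1.08) at 30 mg/kg, with the wider interval. Perp was higher by 0.33 and 0.69, and Sesn1 by 0.15 and 0.62. Tnfrsf10b was at -0.35 and -0.87, and Psrc1 at -0.75 and -1.38. Other genes had the order of the doses reversed, with Plk3 at -0.74 (-1.43 to -0.06) and then -0.40 (-1.09 to 0.28), Phlda3 at 0.39 and then 0.08, and Gdf15 at 1.28 and then 0.58. Each dose is 1 library, and the doses were not compared by a test. Past 2-fold were Gdf15 at 20 mg/kg, higher by 1.28 (0.41 to 2.15; 3.08% of all genes were higher and 3.44% lower), and Psrc1 at 30 mg/kg, at -1.38 (-2.29 to -0.48; 7.35% of all genes were lower and 2.76% higher). The median log2 ratio of the 31 was 0.04 at 20 mg/kg and 0.09 at 30 mg/kg, and that of all genes 0.00 and -0.02.

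Whether the difference with Dox depended on Rh2 was tested as an interaction, with 2 residual degrees of freedom. By edgeR none of the 31 passed an adjusted p of 0.05, nor did any gene (0% called, 497 at an unadjusted p under 0.05, and 38 called by DESeq2's Wald test). At an unadjusted p under 0.05 there were 2 of the 31, against 2.71% of all genes, 1 higher (0.895% of all genes) and 1 lower (1.82%). The interaction was above 0 in 18 of the 31 (48.9% of all genes). Plk2 had an interaction of 0.68 on the log2 scale (0.01 to 1.35, adjusted p = 0.988 by edgeR), and Psrc1 of -1.71 (-3.41 to -0.0025, adjusted p = 0.988 by edgeR). Psrc1 was higher with Dox in the pair without Rh2, by 0.51, and lower in the pairs with it, at -0.92 and -1.53, on fewer than 100 counts in each library. In 4 of the 31 the pair without Rh2 was lower with Dox and both pairs with Rh2 were higher (7.38% of all genes), Plk2, Perp, Gdf15 and Rrm2b. The reverse held in 2 (8.54% of all genes), Psrc1 and Pidd1. The count of 2 was 0 without the Rh2-30 mg/kg library, 4 without Rh2-20 mg/kg + Dox and 1 without Rh2-30 mg/kg + Dox.

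**Figure D5:**
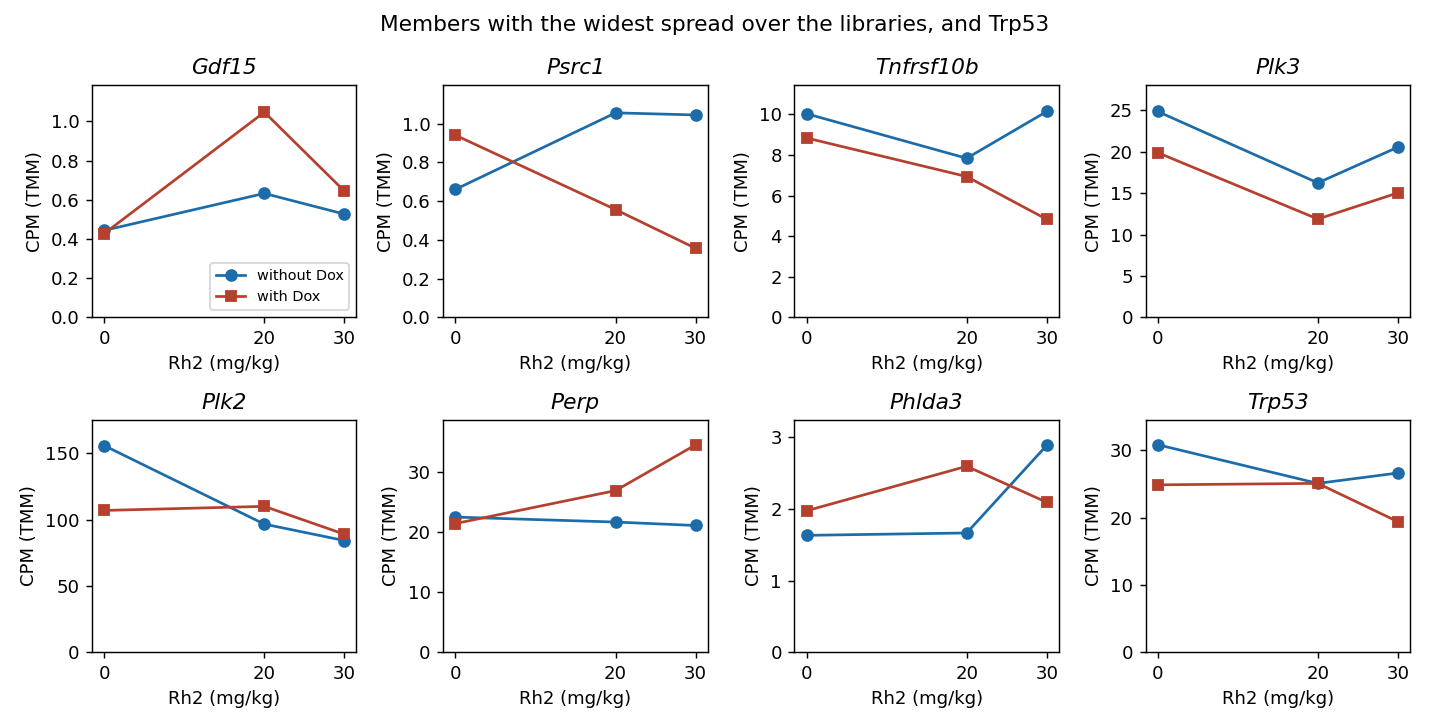
TMM-normalised CPM of 8 further genes against the Rh2 dose in mg/kg, without Dox (circles) and with Dox (squares), 1 library per point and axes from 0. The lines of Psrc1 and Plk2 cross between 0 and 20 mg/kg, Tnfrsf10b with Dox ends at 4.83 CPM, and Gdf15 peaks at 1.05 CPM in Rh2-20 mg/kg + Dox.

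The rest of the pathway was read from lists of other genes. Of 25 regulators of p53 (kinases, ligases, acetylases and cofactors), 24 were tested and Trp73 was under the mean of 10 counts. None was higher with Dox at an unadjusted p under 0.05 (4.2% of all genes) and 2 were lower (5.91% of all genes), shares near those of all genes, with a median log2 fold change of 0.01. The lower ones were Chek1, a checkpoint kinase of S phase, at -0.82 (-1.15 to -0.48, adjusted p = 0.175 by edgeR), and Trp63, a p53 relative of epithelia, at -0.71 (-1.21 to -0.22, adjusted p = 0.350 by edgeR). Cdkn2a had the lowest value, -1.54 (-3.71 to 0.63), at 0.255 CPM or less in every library. The highest were Ppp1r13l, an inhibitor of p53, at 0.19, and Sirt1, its deacetylase, and Wrap53, a neighbour of Trp53, at 0.18 each.

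Of 35 other p53 targets, 34 were tested and Trp53cor1 was under the mean. With Dox 1 was higher at an unadjusted p under 0.05 (4.2% of all genes) and 3 were lower (5.91% of all genes), again near the shares of all genes, with a median of 0.02. The higher one, named after its values were seen, was Rnf144b, a ubiquitin ligase, at 16.4, 18.3 and 20.9 CPM without Dox and 20.9, 29.9 and 37.4 CPM with it (0.67, 0.17 to 1.17, adjusted p = 0.373 by edgeR). Among the lower ones were Ckap2, a spindle protein (-2.05, -2.94 to -1.16), and Trp53i11, named after its values were seen (-0.54, -0.90 to -0.17). Cdkn1a, which encodes the cell cycle inhibitor p21, was at 2.76, 4.79 and 5.90 CPM without Dox and 4.38, 7.43 and 8.66 CPM with it. Each pair was higher with Dox and each Rh2 library was above the library of its Dox state without Rh2, but the groups with and without Dox overlapped (0.61, -0.20 to 1.41, adjusted p = 0.594 by edgeR). With Rh2 its log2 fold change was 0.91, with an unadjusted p of 0.00123 and an adjusted p of 0.567 by edgeR. Bax, the pore-forming killer of the mitochondrial path, was at 11.5 to 13.6 CPM without Dox and 11.8 to 13.3 CPM with it (0.02, -0.23 to 0.28). Bbc3 and Pmaip1, which encode the killers Puma and Noxa, had 0.76 (-0.31 to 1.83) and -1.09 (-2.35 to 0.16), both under 1 CPM. Tap1 (0.99, -0.30 to 2.29) and Thbs1 (0.97, -0.73 to 2.66) had the highest values. Tap1 was at 72.7 CPM in Dox and 15.5 to 22.4 CPM elsewhere, and Thbs1 at 139 CPM in Rh2-20 mg/kg + Dox and 13.4 to 66.7 CPM elsewhere.

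Another list held 12 cell cycle genes that p53 can lower through p21 and the DREAM repressor. Like the other lists, it was chosen with earlier results of these data known, so its shares are not independent support. With Dox 11 of the 12 were lower, and 10 at an unadjusted p under 0.05 (5.91% of all genes). Their median log2 fold change was -1.10, and the part of p53 in it was not tested. The libraries with Dox were all below those without in 11 (9.16% of all genes). Cdk1, the mitotic kinase, was at 1.86, 2.32 and 3.37 CPM without Dox and at 0.619, 0.524 and 0.426 CPM with it (-2.27, -2.98 to -1.55, adjusted p = 0.103 by edgeR). Bub1, of the spindle checkpoint, had -2.78 (-4.06 to -1.51, adjusted p = 0.216 by edgeR). Cdc25c, a phosphatase that activates Cdk1, was at 0.564 to 0.977 CPM without Dox and had no count in the 3 libraries with it. Cenpa, of the centromere, was at 0.00 (-0.45 to 0.45). It was the highest of the list, followed by Cdc20 at -0.73 (-1.45 to -0.01) and Foxm1 at -0.74 (-1.25 to -0.23). None of the 12 passed an adjusted p of 0.05.

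Cell type markers were also read with and without Dox, and their part in the values above was not tested. Of all genes, 47.2% had a log2 fold change above 0, and 4.2% were higher and 5.91% lower at an unadjusted p under 0.05. All 8 macrophage markers had a log2 fold change below 0 (1 with an unadjusted p under 0.05, median -0.51), with sums of 432 to 673 CPM without Dox and 326 to 531 CPM with it. Of 8 fibroblast markers 6 were below 0 (2 with such a p, median -0.44), with sums of 1554 to 2623 CPM and 1018 to 1722 CPM. All 8 cardiomyocyte markers were above 0 (1 with such a p, median 0.17), and 4 of 8 endothelial markers were above 0 (median -0.01). The 4 tested neutrophil markers were above 0 at sums of 4.03 to 16.4 CPM, with Ly6g, Mpo, Elane and Camp under the mean. Of 7 erythroid markers 6 were above 0, and of 8 atrial markers 7 were below. White fat had 6 of 7 below 0, brown fat 4 of 7, skeletal muscle 4 of 7, epidermis 4 of 5 and lung 4 of 4, and the lung markers summed to 12.5 CPM or less in every library. Single libraries weighed on several of these signs. Myl7 (atrium) was at 558 CPM in Rh2-30 mg/kg, 109 in Dox and 0.672 in Control. Adipoq (white fat) was at 39.2, 7.73 and 0.672 CPM in the same order. Ucp1 (brown fat) was at 67.9 CPM in Rh2-30 mg/kg and at most 0.138 CPM elsewhere. Scgb1a1 (lung) was at 7.70 CPM in Rh2-30 mg/kg and at most 1.17 CPM elsewhere. The erythroid sum was highest in Dox, at 10560 CPM, and lowest in Rh2-30 mg/kg + Dox, at 1660 CPM.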

How the data were processed

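Hearts of 6 groups were measured by RNA sequencing, with 1 library for each group and 5 hearts pooled in each, and groups were taken from the sample titles. According to the study's methods and the submitters' processing notes, the authors trimmed reads of 101 bases (Trimmomatic), aligned them to mm10 with HISAT2 2.1.0 and quantified genes with StringTie 2.1.3b. The deposited read counts were whole numbers per gene without normalization, and the strand setting was not given in the sources used here. The deposited FPKM values were scaled by the authors to length and library, and capture of exons can shift such levels between genes. The deposited TPM values were not used here.

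Counts were TMM-normalised and tested in R 4.3.3 with edgeR 4.0.16 (two-sided quasi-likelihood test, Benjamini-Hochberg over the 18328 genes that averaged 10 counts or more). The Dox effect compared 3 libraries with 3, the Rh2 effect 4 with 2 with Dox as a term, and the interaction used all 6. Libraries at different Rh2 doses thus served as replicates, and p-values measure their spread. Single libraries were compared by log2 ratios with a prior count of 0.5, with 95% intervals from counting (exact conditional binomial), or with the common dispersion of 0.0285 added, and a call was 2-fold or more. Counting intervals cover counting error only. Each fit was first tested on simulated counts. Alternatives were DESeq2 1.42.0 (size factors or Wald test), limma 3.58.1 on log2(FPKM + 1), other filters, Rh2 dose as a block, no term for Dox, each library left out, a prior count of 2, and FPKM plus 1 or 0.1. Added after seeing the data were leaving out libraries in the interaction, non-overlap in FPKM, and a likelihood estimate of the dispersion (0.0864). Plots were made in Python 3.11.15 (matplotlib 3.10.9).

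The members and lists were chosen with earlier results of these data known. Named were all 31 members and, from the further p53 lists, the 3 highest and 3 lowest by the Dox effect with Cdkn1a and Bax. Other genes were named after their values were seen. The values of 1 gene of these lists are not reported here. Gene spans and promoter sequences are those of RefSeq, GRCm38.p6.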

Additional observations from a re-analysis of the deposited data

Results flagged for a closer look

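Plk2, the polo-like kinase, moved in opposite directions with Dox in the pair without Rh2 and in both pairs with it, each by more than counting error. Its log2 ratio was -0.543 for Dox against Control, 0.187 for Rh2-20 mg/kg + Dox against Rh2-20 mg/kg and 0.0795 for Rh2-30 mg/kg + Dox against Rh2-30 mg/kg. The Control library, at 156 CPM, stood above the other libraries, which lay at 84.2 to 110 CPM. The test of the difference gave an unadjusted p of 0.0471 and an adjusted p of 0.988 by edgeR, and such a p was found in 2.71% of all genes. With the common dispersion added, the interval of each of the 3 ratios held 0. Over all genes, 7.38% were lower in the pair without Rh2 and higher in both others.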

How the results depend on the processing

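Each Dox effect of Fas, Trp53inp1, Sesn1, Ddb2, Ephx1, Dcxr and Btg2 kept its direction in the 12 alternatives. With DESeq2's Wald test 2 of the 31 genes were called, Fas and Ephx1, against 0 in the other alternatives of the Dox effect, Rh2 dose as a block included, under which 7 genes had an unadjusted p under 0.05, with Plk3 in place of Dcxr. DESeq2's Wald test called 423 genes in all, against 5 by edgeR. At an unadjusted p under 0.05 the Rh2 effect held 2 genes with no Dox term and 1 to 6 when a library was left out, and the interaction 1 with DESeq2's Wald test, 1 with limma on FPKM and 0 to 4 when a library with Rh2 was left out. The genes with all Dox libraries above numbered 3 in FPKM values, and those with all below numbered 1 with DESeq2 size factors. The genes past 2-fold with FPKM plus 0.1 numbered 1 each for Dox alone and either dose of Rh2 alone against Control, and 2 for Rh2-30 mg/kg + Dox. With FPKM plus 1 they numbered 0 for either dose of Rh2 with Dox against Control or against Dox, and for the Dox pair at 30 mg/kg. The Dox effect changed sign for genes near 0. Zmat3 came to 0.00181 with DESeq2 size factors and 0.00138 with its Wald test. With 1 library left out the log2 fold change ran for Mdm2 from -0.0837 to 0.0318, for Phlda3 from -0.0353 to 0.44, for Plk2 from -0.30 to 0.17, for Dram1 from -0.0779 to 0.24, for Abhd4 from -0.095 to 0.26, for Zmat3 from -0.0977 to 0.0973, for Ei24 from -0.083 to 0.0878, for Rap2b from -0.22 to 0.0848, for Ccng1 from -0.15 to 0.039 and for Aen from -0.0415 to 0.19. The cause of these shifts was not tested. The labels carry no replicate numbers, and Rh2 dose as a block stood in for a paired analysis. With the likelihood estimate of the dispersion (0.0864, 1.18 to either side on the log2 scale), 1 interval left out 0 in each of 2 comparisons, that of Psrc1, both of the Rh2-30 mg/kg + Dox library (against Dox and against Rh2-30 mg/kg). With 31 to 99 counts, Psrc1 and Gdf15 are the genes limited by depth.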
